A study of Mus musculus with 12 samples.

Results

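RNA of 9 amino acid transporter genes was followed in mouse heart under dietary and mechanical stress. The genes were chosen by name: Slc7a5, Slc3a2, Slc7a8, Slc7a6, Slc7a1, Slc38a2, Slc38a1, Slc1a5 and Slc6a6. They are 9 of the 16246 genes that the deposited tables list in at least 1 table, and each of the 9 was listed in all 4 tables and passed the filter on low values there. PolyA RNA was sequenced from the hearts of male C57Bl/6J mice, 12 weeks of age, in 4 groups of 3 samples. BCAA-free TAC and BCAA-free sham mice ate a diet from which the branched-chain amino acids leucine, isoleucine and valine had been left out, and control diet TAC and control diet sham mice ate a diet with all essential amino acids at about the level of ordinary chow. Each diet began 4 days before surgery and went on to the end. TAC, transverse aortic constriction, is an operation that narrows the aorta and raises the pressure the left ventricle pumps against, sham is the same operation without the narrowing, and hearts were taken 2 weeks after surgery. Nothing in the labels tells a single heart from a pool, so the p-values reflect the variation among these samples, part of which may be technical.

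Amino acids cross the plasma membrane through carriers of the solute carrier (SLC) superfamily. Slc3a2 encodes the heavy chain of CD98, a glycoprotein that binds by a disulphide bond to a light chain and brings it to the cell surface. The light chain decides the substrate: LAT1, from Slc7a5, exchanges large neutral amino acids such as leucine, isoleucine and valine, LAT2, from Slc7a8, exchanges a wider set of neutral amino acids, and y+LAT2, from Slc7a6, exchanges cationic for neutral amino acids. Slc7a1 encodes CAT1, a carrier of arginine, lysine and ornithine that needs no heavy chain. Slc38a1 and Slc38a2 encode SNAT1 and SNAT2, which take up glutamine and other small neutral amino acids with sodium, and Slc1a5 encodes ASCT2, a sodium-dependent exchanger of glutamine and other neutral amino acids. Slc6a6 encodes TauT, which takes up taurine, an amino sulphonic acid that heart muscle holds at high concentration. In cultured mammalian cells, several of these genes are known targets of the transcription factor ATF4, which is made when amino acids run short, and leucine that enters through LAT1 activates the growth regulator mTORC1.

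On GRCm38, Slc7a5 lies at chr8:121881150-121907694 on the minus strand, Slc3a2 at chr19:8706882-8723369 on the minus strand and Slc7a8 at chr14:54722209-54781946 on the minus strand. Slc7a6 lies at chr8:106168857-106198706 on the plus strand and Slc7a1 at chr5:148327410-148399904 on the minus strand. Slc38a2 and Slc38a1 share chromosome 15, at chr15:96687392-96699730 and chr15:96571418-96642913, both on the minus strand. Slc1a5 lies at chr7:16781340-16798274 and Slc6a6 at chr6:91684053-91759066, both on the plus strand. Gm20388 overlaps Slc7a5 on the opposite strand, and 3 gene models of type TEC overlap Slc6a6. None of these 4 is listed in the tables. RefSeq promoter windows of GRCm38.p6 (250 bases before to 50 after a start) were at hand for 5 of the 9 genes, 7 windows in all, because Slc7a6 and Slc7a1 have 2 each. The 250 bases upstream are shown for the first window of Slc7a1, a gene that was higher on the BCAA-free diet after TAC, and of Slc7a6, a gene that was lower.
Slc7a1, chr5:148399905-148400154, minus strand: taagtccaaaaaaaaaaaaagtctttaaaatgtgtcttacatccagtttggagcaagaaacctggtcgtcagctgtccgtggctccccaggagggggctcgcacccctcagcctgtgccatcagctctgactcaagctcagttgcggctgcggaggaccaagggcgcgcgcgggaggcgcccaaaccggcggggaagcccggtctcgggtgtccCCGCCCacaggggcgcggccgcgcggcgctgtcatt
Slc7a6, chr8:106168604-106168853, plus strand: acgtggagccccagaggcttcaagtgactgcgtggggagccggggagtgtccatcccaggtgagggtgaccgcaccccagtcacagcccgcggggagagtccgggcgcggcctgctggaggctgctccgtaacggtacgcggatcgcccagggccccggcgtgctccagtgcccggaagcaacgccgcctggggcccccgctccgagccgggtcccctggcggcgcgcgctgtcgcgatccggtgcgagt
Capitals mark the GC box, GGGCGG on either strand, a motif picked after the sequences were seen. The Slc7a1 window shown holds 1 and the Slc7a6 window shown 0. In the second windows it is the other way round, with 0 in that of Slc7a1 and 1 in that of Slc7a6. The motif thus does not set the genes apart. Of all 32851 upstream windows, 32.7% hold at least 1. GC content was 62.4% in the first and 50% in the second Slc7a1 window and 74% and 77.2% in the Slc7a6 windows, against a median of 52.4% over all windows. The C/EBP-ATF response element, TGATGNAA on either strand, is found in 3.97% and the E-box, CACGTG, in 7.15% of all full windows, and in none of the 7 windows of these genes. The motifs do not overlap one another, and the search says only that these letters are not in these windows.

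Per transcript length, Slc38a2 had the highest level of the 9 genes and Slc7a8 the lowest. Levels are reads per kilobase of the longest annotated transcript per 1000000 reads, scaled by TMM over the 12 libraries, and are given as the mean over the 12 libraries with the lowest and highest library. Slc38a2 averaged 29.1 (22.4 to 50.7), Slc6a6 18.5 (11.9 to 25.4), Slc3a2 16.9 (13.9 to 20.1) and Slc1a5 13.9 (9.36 to 19.5). Slc7a1 averaged 7.47 (5.27 to 11.1) and Slc7a6 4.28 (3.30 to 5.86). Slc7a5 averaged 2.05 (1.32 to 3.87), Slc38a1 1.99 (1.46 to 2.40) and Slc7a8 0.969 (0.702 to 1.22). SNAT2, ASCT2, the taurine carrier and the heavy chain thus stood above CAT1, SNAT1 and the 3 light chains on this scale. Neighbours in this order overlapped over the 12 libraries, apart from Slc38a1 and Slc7a8. Summed over the 9 genes, the per-length level was 97.5 ± 1.76 in BCAA-free TAC, 95.9 ± 2.91 in BCAA-free sham, 105 ± 19.8 in control diet TAC and 82.0 ± 5.11 in control diet sham samples (SD, n = 3 each). Of that sum Slc7a5 made up 3.04% ± 0.042 in control diet TAC and 1.71% ± 0.161 in control diet sham samples, and Slc1a5 made up 18.9% ± 1.44 in BCAA-free TAC and 12.8% ± 2.37 in control diet TAC samples (SD, n = 3 each).

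**Figure D1:**
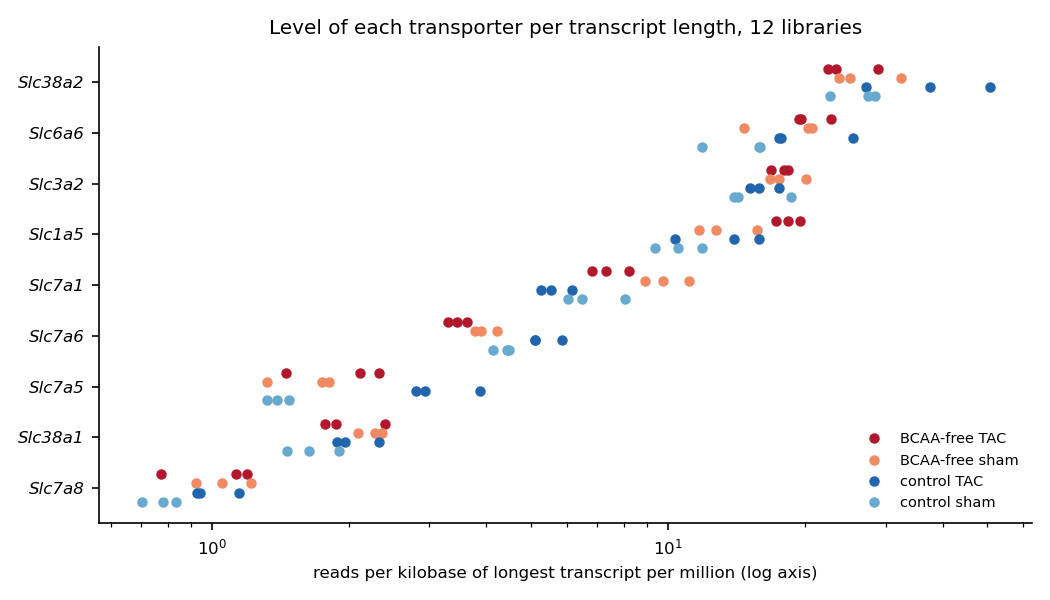
Level of each transporter per transcript length (x axis, reads per kilobase of the longest transcript per 1000000 reads, log scale), 1 point per library, coloured by group, with genes ordered by their mean over the 12 libraries. Slc38a2 lies between 22.4 and 50.7 and Slc7a8 between 0.702 and 1.22, and the control diet TAC points of Slc7a5 lie to the right of its other 9 points.

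All 12 libraries carried heart muscle RNA: the 8 cardiomyocyte markers were all listed and summed to 56266 to 86940 RPM, reads per 1000000 reads of the library. The reads recovered per library, summed over the genes of its TAC against sham table, numbered 13848953 to 52059546, and Slc7a5 rested on 83 to 565 reads, the fewest in BCAA-free sham replicate 2. Control diet TAC replicate 2 stood apart, with 1685 RPM over the 6 activated fibroblast markers (Postn, Cthrc1, Acta2, Fn1, Thbs4 and Comp), where the highest of the other 11 libraries had 537. The 3 BCAA-free TAC libraries differed from the rest in base composition, with a Spearman correlation between GC content and a gene's level relative to the mean library of 0.20 to 0.40, against -0.22 to 0.04 in the other 9; it is a description across genes that share a library. In bulk tissue, fewer cells of a type and less RNA per cell cannot be told apart. Values below are normalized read counts of a table, which compare samples but not genes, given for replicates 1, 2 and 3 in order, and log2 fold changes are given ± SE. A gene was called, and is said to have risen or fallen, where limma gave an adjusted p under 0.05 over all genes of the table.

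**Figure D2:**
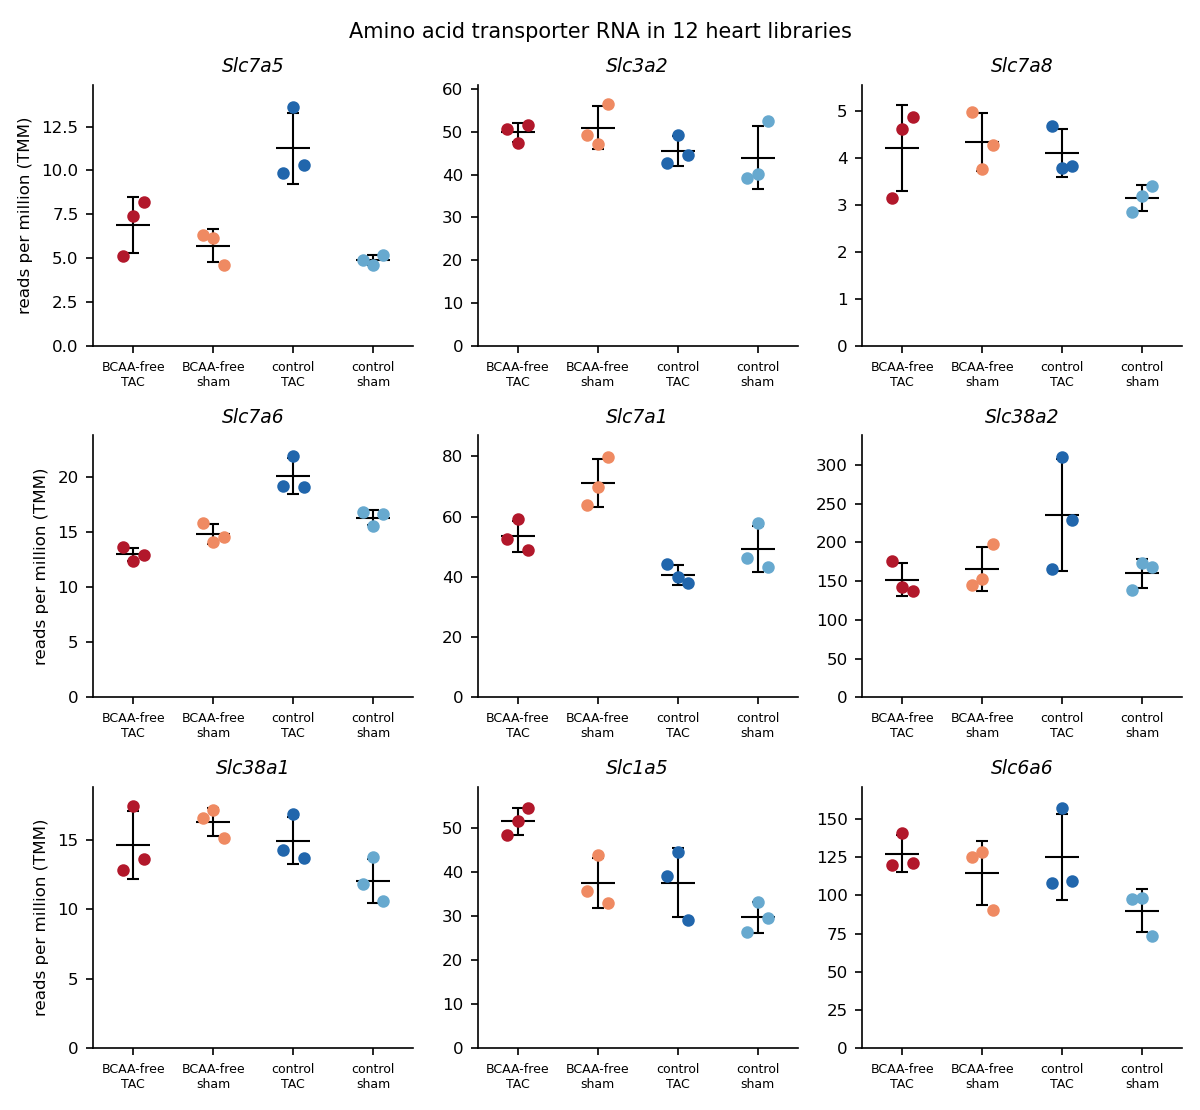
RPM (y axis, TMM-scaled over the 12 libraries) of the 9 genes in the 4 groups, with 1 point per library and the mean ± SD (n = 3). Slc7a5 and Slc7a6 have their 3 highest libraries among the control diet TAC samples, and Slc1a5 has its 3 highest among the BCAA-free TAC samples.

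With a full amino acid supply, pressure overload moved 1 transporter past the threshold. Slc7a5, the LAT1 light chain, rose 2.28-fold and was the only 1 of the 9 genes called; the tables' background was 4.04% of all 15397 genes called, 2.95% as risen and 1.09% as fallen. Another 5 genes, Slc7a8, Slc7a6, Slc38a1, Slc6a6 and, in the other direction, Slc7a1, had groups that did not overlap but were not called, and 35.2% of all genes had groups that did not overlap. For Slc38a1 and Slc7a1 the gap depended on the scaling, since their groups overlapped in TMM-scaled RPM. There Slc38a1 had 13.69 in control diet TAC replicate 3 and 13.78 in control diet sham replicate 2. The median log2 fold change of the 9 was 0.32, against -0.0047 over all genes, and 4 of the 9 had an unadjusted p under 0.05, against 28.2% of all genes. Slc7a5 had 294, 406 and 309 in the control diet TAC samples, against 145, 137 and 159.6 in the control diet sham samples. All 3 TAC samples lay well above all 3 sham samples, with replicate 2 the highest. The log2 fold change was 1.17 ± 0.16, 95% interval 0.81 to 1.54, adjusted p = 0.0295 (limma), and the means were 336 ± 61.2 in control diet TAC and 147 ± 11.6 in control diet sham samples (SD, n = 3 each). Its partner Slc3a2, the CD98 heavy chain, had 1268, 1472 and 1334 in the control diet TAC samples, against 1168, 1183 and 1609.8 in the control diet sham samples. These overlapped, with sham replicate 3 the highest of the 6 (log2 fold change 0.05 ± 0.14, adjusted p = 0.829).

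The other 2 light chains had higher values after TAC without being called. Slc7a6, y+LAT2, had 572, 656 and 574 in the control diet TAC samples, against 500.4, 457 and 510.5 in the control diet sham samples, with no overlap (log2 fold change 0.29 ± 0.11, adjusted p = 0.126). Slc7a8, LAT2, averaged 123 ± 14.8 in control diet TAC and 94.6 ± 9.65 in control diet sham samples (log2 fold change 0.37 ± 0.17, adjusted p = 0.201). In normalized read counts, the arginine carrier gene Slc7a1 was lower in each TAC sample than in any sham sample, at 1315, 1189.7 and 1133 in the control diet TAC samples, against 1382, 1704 and 1332 in the control diet sham samples (log2 fold change -0.27 ± 0.12, adjusted p = 0.178). In TMM-scaled RPM the groups overlapped, with 44.2 in TAC replicate 1 and 43.4 in sham replicate 3. Slc38a2, SNAT2, had 4948, 9264 and 6869 in the control diet TAC samples, against 4130.4, 5116 and 5158 in the control diet sham samples. TAC replicate 2 was far above the rest and TAC replicate 1 lay inside the sham range (log2 fold change 0.51 ± 0.21, adjusted p = 0.153). Without TAC replicate 1 the value was 0.74, adjusted p = 0.0455, and without TAC replicate 2 it was 0.29, adjusted p = 0.409 (limma). For Slc38a1, SNAT1, the means were 446 ± 50.8 in control diet TAC and 361 ± 40.7 in control diet sham samples (log2 fold change 0.30 ± 0.13, adjusted p = 0.177), and for Slc1a5, ASCT2, they were 1122 ± 233 in control diet TAC and 890.4 ± 100.3 in control diet sham samples (log2 fold change 0.32 ± 0.16, adjusted p = 0.234). Slc6a6, the taurine carrier, had 3221, 4703 and 3273 in the control diet TAC samples, against 2913, 2897 and 2261 in the control diet sham samples, again with replicate 2 the highest and no overlap (log2 fold change 0.46 ± 0.17, adjusted p = 0.121).

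Control diet TAC samples also differed from control diet sham samples in markers of several cell types. Of all genes, 2.95% rose and 1.09% fell, and 28.2% had an unadjusted p under 0.05. The 6 activated fibroblast markers summed to 495 to 1685 RPM in control diet TAC and 188 to 247 in control diet sham samples, and 4 of the 6 rose. Of these 4, Cthrc1 had 202 ± 233 in control diet TAC and 5.82 ± 5.14 in control diet sham samples (SD). Cthrc1 passed the filter on low values only through the TAC samples. The 8 cardiomyocyte markers summed to 56266 to 69709 in control diet TAC and 73919 to 82525 in control diet sham samples, with 1 fallen. The 8 macrophage markers summed to 297 to 378 in control diet TAC and 212 to 309.9 in control diet sham samples, with 1 risen. Of the other lists, 3 of 8 fibroblast, 2 of 8 smooth muscle and pericyte and 1 of 6 proliferation markers rose, and 0 of 8 endothelial, 0 of 3 lymphocyte, 0 of 5 neutrophil and mast cell, 0 of 5 erythroid and 0 of 5 adipocyte markers were called (limma; 3, 0, 0, 1 and 0 at an unadjusted p under 0.05). The proliferation marker was Bub1, near the floor at 24.1 ± 15.6 in control diet TAC and 4.28 ± 1.07 in control diet sham samples. Bub1 too passed the filter on low values only through the TAC samples. The part of these marker shifts in the transporter values was not tested. Without control diet TAC replicate 2, the log2 fold change of Slc7a5 was 1.03, adjusted p = 0.0197 (limma). The call was lost without control diet sham replicate 1 (1.17, adjusted p = 0.108), without sham replicate 2 (1.12, adjusted p = 0.107) and without TAC replicate 3 (1.23, adjusted p = 0.0637), where no more than 2 genes in the whole table were called.

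On the BCAA-free diet, 2 transporters were called after the same surgery. Slc1a5 rose 1.37-fold and Slc7a1 fell to 1881 in BCAA-free TAC, against 2508 in BCAA-free sham samples; of all 15670 genes, 3.34% were called as risen and 2.89% as fallen, 6.23% in all. The other 7 genes, Slc7a5 among them, were not called. The median over the 9 was -0.06, against 0.0014 over all genes; 2 of the 9 had an unadjusted p under 0.05 and 3 had groups that did not overlap, where 24.5% and 29.5% of all genes did. Slc1a5, the glutamine exchanger ASCT2, had 1706, 1814 and 1912 in the BCAA-free TAC samples, against 1259, 1546 and 1156 in the BCAA-free sham samples. The lowest TAC sample lay above the highest sham sample (log2 fold change 0.46 ± 0.10, 95% interval 0.24 to 0.69, adjusted p = 0.0272, limma). Slc7a1, the arginine carrier CAT1, had 1852, 2081 and 1710.2 in the BCAA-free TAC samples, against 2254, 2460.2 and 2810.1 in the BCAA-free sham samples. Every TAC sample lay below every sham sample (log2 fold change -0.41 ± 0.10, 95% interval -0.62 to -0.20, adjusted p = 0.0326).

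Slc7a5 had 180.1, 261 and 287 in the BCAA-free TAC samples, against 224, 216 and 164 in the BCAA-free sham samples. The groups overlapped, since TAC replicate 1 lay below 2 of the sham samples, and the log2 fold change was 0.26 ± 0.19, 95% interval -0.15 to 0.66, adjusted p = 0.437. Slc3a2 averaged 1750.1 ± 75.7 in BCAA-free TAC and 1794 ± 172 in BCAA-free sham samples, a log2 fold change of -0.03 ± 0.08, adjusted p = 0.858. Slc7a6 had 479, 436 and 453 in the BCAA-free TAC samples, against 559, 497 and 513 in the BCAA-free sham samples, lower after TAC with no overlap but not called (log2 fold change -0.20 ± 0.10, adjusted p = 0.237). Slc7a8 spread widely in both groups, at 148 ± 32.1 in BCAA-free TAC and 153 ± 21.6 in BCAA-free sham samples (log2 fold change -0.06 ± 0.19, adjusted p = 0.877). Both SNAT genes overlapped between surgeries: the log2 fold change was -0.12 ± 0.13, adjusted p = 0.625 for Slc38a2 and -0.17 ± 0.12, adjusted p = 0.424 for Slc38a1. Slc6a6 averaged 4477 ± 427 in BCAA-free TAC and 4040.4 ± 735 in BCAA-free sham samples (log2 fold change 0.16 ± 0.13, adjusted p = 0.497). Of the cell type markers, 2 of 8 macrophage, 1 of 8 cardiomyocyte and 1 of 5 erythroid markers rose, and 2 of 8 smooth muscle and pericyte, 1 of 8 fibroblast and 1 of 8 endothelial markers fell, while 0 markers of the other 5 lists were called by limma. Among these, the activated fibroblast markers summed to 251 to 366 RPM in BCAA-free TAC and 208 to 231 in BCAA-free sham samples. Of the 6, 5 had an unadjusted p under 0.05, against 24.5% of all genes. Among these 5, Cthrc1 had 22.1 ± 15.7 in BCAA-free TAC and 7.72 ± 2.45 in BCAA-free sham samples (SD). Cthrc1 passed the filter on low values only through the TAC samples. Of all genes, 3.34% were called as risen and 2.89% as fallen. The part of these markers in the transporter values was not tested. After removal of the trend with GC content and transcript length in each library, neither transporter call held: Slc1a5 had 0.28, adjusted p = 0.234 and Slc7a1 -0.33, adjusted p = 0.116 (limma). Slc1a5 was also not called without BCAA-free sham replicate 1, TAC replicate 2 or TAC replicate 3 (0.44, adjusted p = 0.0864; 0.46, adjusted p = 0.0729; 0.42, adjusted p = 0.128), nor Slc7a1 without sham replicate 1 (-0.49, adjusted p = 0.0554), sham replicate 2 (-0.42, adjusted p = 0.105), TAC replicate 1 (-0.40, adjusted p = 0.066) or TAC replicate 3 (-0.35, adjusted p = 0.147).

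**Figure D3:**
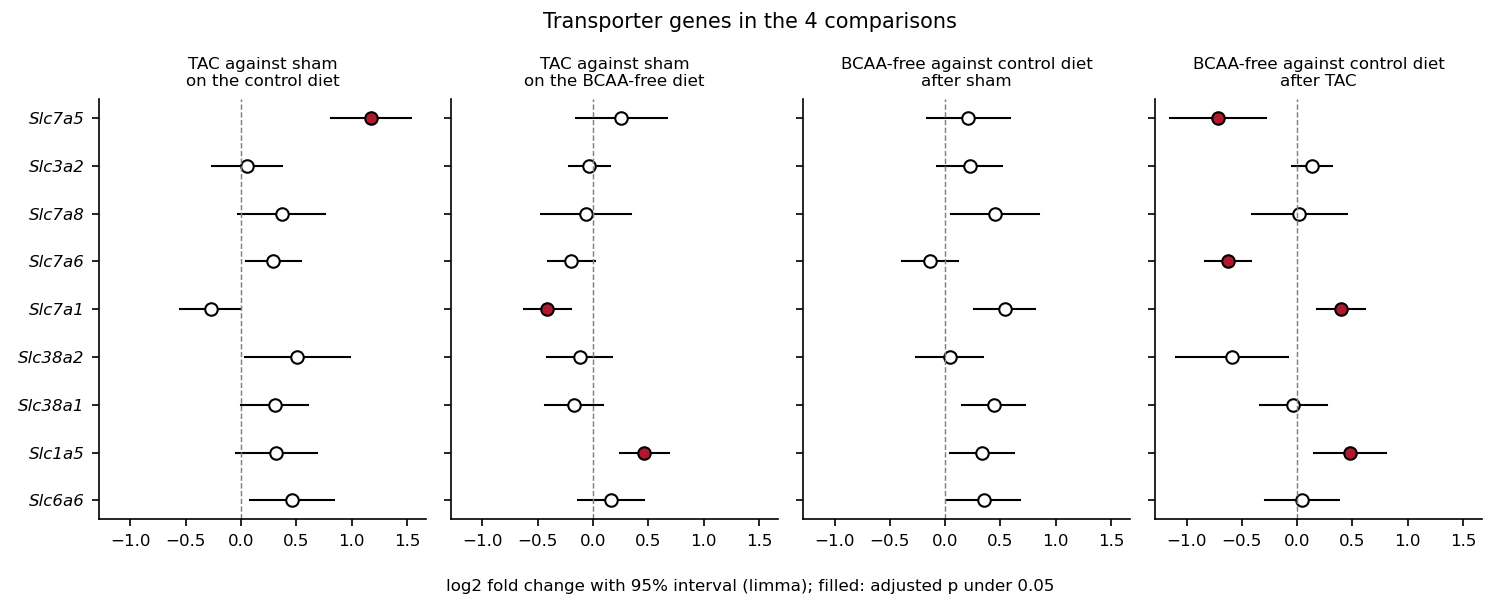
Log2 fold change with its 95% interval (x axis, limma) of each gene in the 4 comparisons, with filled points where the adjusted p was under 0.05. Slc7a5 has the largest value after TAC on the control diet, 1.17, and Slc7a5 and Slc7a6 lie to the left and Slc7a1 and Slc1a5 to the right of 0 in the diet comparison after TAC.

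In sham samples, the diet comparison asks how a diet without branched-chain amino acids moved the transporters in a heart without pressure overload. No transporter was called by limma, where 0.624% of all 15217 genes were, 0.25% as risen and 0.375% as fallen; 5 of the 9 had an unadjusted p under 0.05, against 16.6% of all genes, and 4 had groups that did not overlap, against 23%. Slc7a1 alone was called by DESeq2 on the recovered reads of the 6 libraries. It was also called by limma-voom and edgeR on all 12 libraries (adjusted p = 0.0379 and 0.0372) and by limma with the GC and length trend removed (0.50, adjusted p = 0.0336). On the 6 libraries, edgeR and limma-voom called 0 of the 9. Of the 9 log2 fold changes 8 were above 0, with a median of 0.33 against -0.00045 over all genes. Slc7a1 had 1851, 2019.8 and 2309 in the BCAA-free sham samples, against 1336, 1650.3 and 1275 in the control diet sham samples. All BCAA-free samples lay above all control diet samples (log2 fold change 0.54 ± 0.13, 95% interval 0.26 to 0.81, adjusted p = 0.0681, limma). DESeq2 gave 0.54, adjusted p = 0.0107, and the authors' deposited table gives a log2 fold change of 0.54 with an adjusted p of 0.011. Without control diet sham replicate 2, whose value was the highest of its group, limma gave 0.65, adjusted p = 0.0298.

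Slc38a1, SNAT1, had 479, 496 and 439 in the BCAA-free sham samples, against 341, 393 and 312 in the control diet sham samples, higher on the BCAA-free diet with no overlap (log2 fold change 0.44 ± 0.13, adjusted p = 0.132, limma). Slc7a8, LAT2, showed the same order, at 144, 109 and 124 in the BCAA-free sham samples, against 82.4, 91.1 and 100.1 in the control diet sham samples (log2 fold change 0.45 ± 0.18, adjusted p = 0.245). Slc1a5, counted above among the 4 genes without overlap, was separated only narrowly, with 1034, 1269.6 and 950.1 in the BCAA-free sham samples, against 756, 950.0 and 869.5 in the control diet sham samples (log2 fold change 0.33 ± 0.13, adjusted p = 0.243). In TMM-scaled RPM its groups overlapped, with 32.9 in BCAA-free sham replicate 3 and 33.3 in control diet sham replicate 2. Slc6a6 averaged 3318 ± 603 in BCAA-free sham and 2595 ± 373 in control diet sham samples and overlapped, since BCAA-free replicate 3 was low (log2 fold change 0.35 ± 0.15, adjusted p = 0.282). Both genes of the LAT1 pair overlapped between diets: the log2 fold changes were 0.21 ± 0.17, adjusted p = 0.581 for Slc7a5, and 0.22 ± 0.13, adjusted p = 0.44 for Slc3a2. The 95% interval for Slc7a5, -0.17 to 0.58, includes the value of Slc7a1, 0.54. Slc38a2 averaged 4784 ± 816 in BCAA-free sham and 4629 ± 552 in control diet sham samples (log2 fold change 0.04 ± 0.14, adjusted p = 0.907), and Slc7a6 was the only 1 of the 9 with a value below 0 (-0.14 ± 0.11, adjusted p = 0.593). Of the cell type markers, 1 of 8 smooth muscle and pericyte markers rose and 1 of 4 proliferation markers fell, where 0.25% of all genes rose and 0.375% fell. The 8 macrophage markers summed to 161 to 191 RPM in BCAA-free sham and 212 to 309.9 in control diet sham samples. Of these, 0 were called by limma and 8 had an unadjusted p under 0.05, against 16.6% of all genes. No marker of the other 8 lists was called by limma, and the part of any marker in the transporter values was not tested.

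After TAC, the diets separated 4 of the 9 transporters, in both directions. The light chain genes Slc7a5 and Slc7a6 fell to 0.614 and 0.646 times their control diet level, while Slc7a1 rose 1.32-fold and Slc1a5 1.37-fold. In this comparison 34.2% of all 15872 genes were called, 16.5% as risen and 17.7% as fallen, so that a count of 4 in 9 lies close to the background. Likewise 5 of the 9 had an unadjusted p under 0.05 and 4 had groups that did not overlap, against 45.7% and 50.8% of all genes, and the median of the 9 was 0.02, against 0.00026 over all genes. Slc7a6 had 497, 452 and 469.9 in the BCAA-free TAC samples, against 700.0, 798 and 699 in the control diet TAC samples. The BCAA-free samples lay close together, well below the control diet samples (log2 fold change -0.63 ± 0.09, 95% interval -0.84 to -0.42, adjusted p = 0.00216, limma). Slc7a5 had 187, 271 and 297 in the BCAA-free TAC samples, against 359, 494 and 376 in the control diet TAC samples. All BCAA-free samples were lower, replicate 1 by the widest margin (log2 fold change -0.71 ± 0.19, 95% interval -1.15 to -0.28, adjusted p = 0.0215). Without that replicate it was -0.51, adjusted p = 0.0578.

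Slc7a1 had 1919, 2160.2 and 1773 in the BCAA-free TAC samples, against 1609.9, 1446 and 1380.1 in the control diet TAC samples. Each BCAA-free sample was above each control diet sample (log2 fold change 0.40 ± 0.10, 95% interval 0.18 to 0.61, adjusted p = 0.0135, limma). For Slc1a5 the values were 1768, 1884 and 1982 in the BCAA-free TAC samples, against 1425, 1618 and 1062 in the control diet TAC samples. These did not overlap either, and control diet replicate 3 was the lowest by a wide margin (log2 fold change 0.48 ± 0.14, 95% interval 0.15 to 0.80, adjusted p = 0.0319). Slc38a2, the SNAT2 gene, had 6433, 5215 and 4971 in the BCAA-free TAC samples, against 6056, 11259 and 8366 in the control diet TAC samples. Control diet replicate 2 was the highest of the 6 and control diet replicate 1 lay inside the BCAA-free range, so the groups overlapped (log2 fold change -0.59 ± 0.22, 95% interval -1.10 to -0.08, adjusted p = 0.0719). The authors' deposited table gives Slc38a2 a log2 fold change of -0.63 with an adjusted p of 0.00599, and DESeq2 on the recovered reads gave -0.63, adjusted p = 0.00603. The limma-voom and edgeR fits on all 12 libraries also called it (adjusted p = 0.0339 and 0.0257). Single control diet libraries moved the limma value widely, to -0.82, adjusted p = 0.00571 without replicate 1 and to -0.37, adjusted p = 0.112 without replicate 2. With the GC and length trend removed it was -0.32, adjusted p = 0.289. Slc3a2 averaged 1815 ± 76.8 in BCAA-free TAC and 1655 ± 122 in control diet TAC samples (log2 fold change 0.13 ± 0.08, adjusted p = 0.223). Slc7a8, Slc38a1 and Slc6a6 overlapped between diets, with log2 fold changes of 0.02 ± 0.19, adjusted p = 0.943, of -0.04 ± 0.13, adjusted p = 0.86, and of 0.05 ± 0.15, adjusted p = 0.826 (limma).

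BCAA-free TAC and control diet TAC samples also differed in cell type markers. Of all genes, 16.5% rose and 17.7% fell in this comparison. The 8 cardiomyocyte markers summed to 84997 to 86940 RPM in BCAA-free TAC and 56266 to 69709 in control diet TAC samples, with 5 risen and 1 fallen. All 8 macrophage markers fell, with sums of 186 to 223 in BCAA-free TAC and 297 to 378 in control diet TAC samples. Of 8 fibroblast markers 6 fell, with sums of 1934 to 2226 in BCAA-free TAC and 2472 to 3448 in control diet TAC samples, as did 3 of 6 activated fibroblast markers, with sums of 251 to 366 in BCAA-free TAC and 495 to 1685 in control diet TAC samples. All 6 proliferation markers fell, and the 3 of them listed in all tables summed to 1.27 to 2.26 in BCAA-free TAC and 10.3 to 35.8 in control diet TAC samples. Bub1 averaged 1.60 in BCAA-free TAC and 29.3 in control diet TAC samples, and Cdk1 8.10 and 97.5. Both passed the filter on a mean of 10 only through the control diet samples. Of the 7 lymphocyte markers 3 were listed, and none of them was called; 4 of 8 endothelial markers fell, 1 of 8 smooth muscle and pericyte markers rose and 1 fell, 1 of 5 erythroid and 1 of 5 adipocyte markers rose, and 0 of 5 neutrophil and mast cell markers were called (limma; 0 at an unadjusted p under 0.05). The part of these markers in the transporter differences was not tested. With the GC and length trend of each library removed, the 4 calls held (Slc7a5 -0.74, Slc7a6 -0.51, Slc7a1 0.60 and Slc1a5 0.39). Scaling by library totals alone, which moves the median of all genes to -0.13, left Slc7a5 and Slc7a6 called and gave 0.27, adjusted p = 0.0702 for Slc7a1 and 0.35, adjusted p = 0.118 for Slc1a5. Slc7a1 was also not called without control diet TAC replicate 3 (0.35, adjusted p = 0.0545) or BCAA-free TAC replicate 2 (0.32, adjusted p = 0.052), nor Slc1a5 without control diet TAC replicate 3 (0.30, adjusted p = 0.0608) or BCAA-free TAC replicate 1 (0.52, adjusted p = 0.0655), replicate 2 (0.47, adjusted p = 0.0888) or replicate 3 (0.44, adjusted p = 0.105).

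Whether the TAC effect itself differed between the diets was tested as the interaction of diet and surgery over the 12 libraries. The difference is the TAC effect on the BCAA-free diet minus that on the control diet. Slc7a5 and Slc7a6 were called, both with a lower TAC effect on the BCAA-free diet; 8.65% of all 15195 genes were called, 3.73% in that direction and 4.92% in the other. The TAC effect of Slc7a5 was 0.26 on the BCAA-free and 1.17 on the control diet, a difference of -0.92 ± 0.26, 95% interval -1.48 to -0.35, adjusted p = 0.0454 (limma). For Slc7a6 the effects were -0.20 on the BCAA-free and 0.29 on the control diet, a difference of -0.49 ± 0.14, 95% interval -0.78 to -0.19, adjusted p = 0.0426. Slc38a2, Slc38a1 and Slc7a8 had differences of the same sign that were not called (-0.63 ± 0.28, adjusted p = 0.155; -0.47 ± 0.19, adjusted p = 0.117; -0.43 ± 0.26, adjusted p = 0.291). The 4 remaining genes had smaller differences: -0.30 ± 0.23, adjusted p = 0.419 for Slc6a6, -0.14 ± 0.16, adjusted p = 0.602 for Slc7a1, 0.15 ± 0.21, adjusted p = 0.674 for Slc1a5 and -0.09 ± 0.17, adjusted p = 0.77 for Slc3a2. The median over the 9 was -0.43, against -0.03 over all genes, and 4 of the 9 had an unadjusted p under 0.05, against 28.4% of all genes. Slc1a5, called after TAC on the BCAA-free diet alone, is not shown to respond differently between the diets (95% interval -0.30 to 0.59), nor is Slc7a1 (-0.49 to 0.21). The Slc7a5 call was lost when any library but control diet TAC replicate 1, control diet sham replicate 3 or BCAA-free sham replicate 3 was left out, and the Slc7a6 call when any but control diet TAC replicate 1 or control diet sham replicate 3 was, with differences of -1.06 to -0.72 and -0.53 to -0.42 over the 12 fits. With the GC and length trend removed Slc7a5 was called (-0.96) and Slc7a6 was not (-0.36, adjusted p = 0.105).

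**Figure D4:**
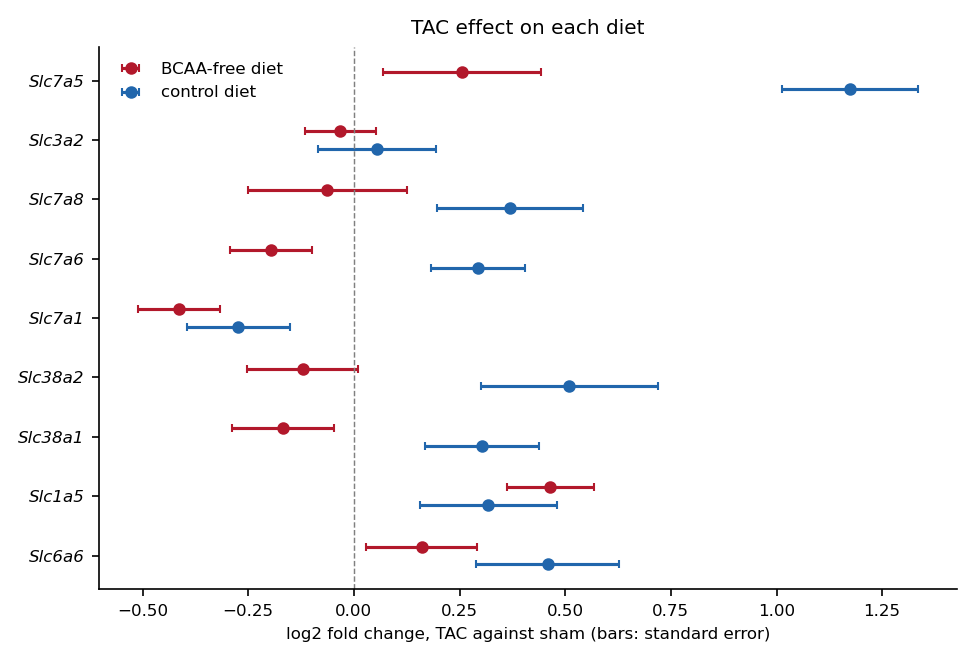
TAC effect of each gene (x axis, log2 fold change of TAC against sham, bars are SE) on the BCAA-free diet and on the control diet. The points of Slc7a5, 0.26 on the BCAA-free and 1.17 on the control diet, and of Slc7a6, -0.20 on the BCAA-free and 0.29 on the control diet, lie apart, as do those of Slc38a2, Slc38a1 and Slc7a8, whose difference was not called, while those of the other 4 genes have bars that overlap.

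Because LAT1 works as a heterodimer, the reads of the light chain Slc7a5 were set against those of the heavy chain Slc3a2 within each library, a ratio that no scaling of a library can change. It was 0.101, 0.157 and 0.159 in BCAA-free TAC, 0.129, 0.130 and 0.0823 in BCAA-free sham, 0.232, 0.276 and 0.231 in control diet TAC and 0.124, 0.115 and 0.0991 in control diet sham samples. The 3 control diet TAC libraries stood above the other 9, which overlapped one another. The ratio averaged 0.246 ± 0.0257 in control diet TAC and 0.113 ± 0.0128 in control diet sham samples (SD, n = 3 each), a log2 difference of 1.13 (exact two-sided permutation p = 0.1, adjusted over the 4 pairs 0.2). After TAC it averaged 0.139 ± 0.0328 on the BCAA-free and 0.246 ± 0.0257 on the control diet (SD, n = 3 each), a log2 difference of -0.85 (exact permutation p = 0.1, adjusted 0.2). With 3 against 3, 0.1 is the smallest p this test can give. TAC against sham on the BCAA-free diet gave 0.29 (exact permutation p = 0.5, adjusted 0.667), and the diets after sham gave -0.01 (exact permutation p = 1, adjusted 1). Slc3a2 itself was not called in any comparison.

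**Figure D5:**
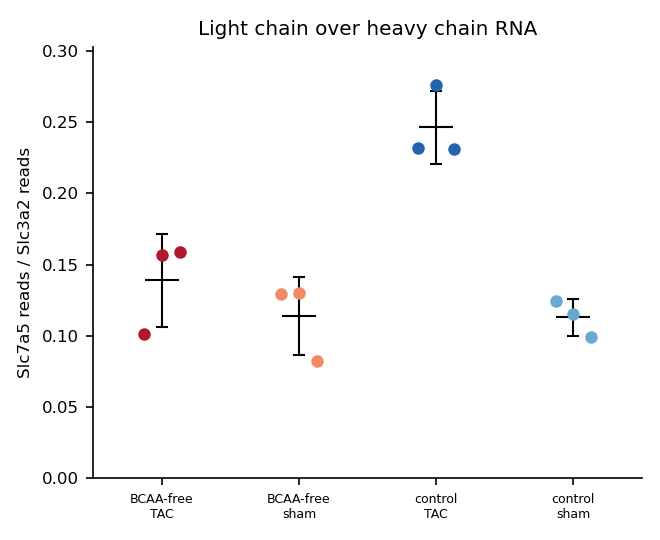
Slc7a5 reads divided by Slc3a2 reads (y axis) in each library, with the mean ± SD of each group (n = 3). The 3 control diet TAC libraries lie between 0.231 and 0.276 and the other 9 between 0.0823 and 0.159.

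Other amino acid carriers of the plasma membrane and lysosome were called most often between the diets after TAC, as were genes in general. Of 39 gene symbols listed, among them Pqlc2 and Slc66a1 for the same gene, 24 or 25 were tested in a comparison. For this list and those below, calls are from the main test alone, and alternatives are not given. Over all genes, removing the GC and length trend took TAC on the BCAA-free diet from 524 risen and 453 fallen to 77 and 8. It took the interaction from 747 positive and 567 negative to 498 and 140. Without control diet TAC replicate 3, TAC on the control diet had 0 genes called. TAC on the control diet raised 2 and lowered 2 of 24, where 4.04% of all genes were called (median 0.08): Slc1a4, a neutral amino acid exchanger, rose by 1.15 ± 0.24, adjusted p = 0.0433 and Slc38a4, SNAT4, by 0.55 ± 0.12, adjusted p = 0.0433, while Slc38a3, the glutamine carrier SNAT3, had -0.72 ± 0.17, adjusted p = 0.0491 and Slc6a17 -0.88 ± 0.21, adjusted p = 0.0492 (log2 fold changes, limma). TAC on the BCAA-free diet raised 1 of 25, where 6.23% of all genes were called (median 0.03), Slc7a7, the y+LAT1 light chain, by 0.78 ± 0.21, adjusted p = 0.0475. The diets after sham differed in 0 of 24 by limma (median 0.09), with 6 at an unadjusted p under 0.05, against 16.6% of all genes. Slc43a1, the LAT3 gene, and Slc6a9, the glycine carrier GlyT1, had the smallest p, with 0.94 ± 0.23, adjusted p = 0.0854 and 0.78 ± 0.22, adjusted p = 0.117. After TAC, the BCAA-free diet raised 5 and lowered 4 of 25 (median -0.08). That share is close to the 34.2% of all genes called. Slc38a4 had -0.60 ± 0.10, adjusted p = 0.00316, Slc36a4 -0.60 ± 0.12, adjusted p = 0.00664, Slc43a2, LAT4, -0.44 ± 0.09, adjusted p = 0.007 and Slc7a10, a light chain for small neutral amino acids, 2.13 ± 0.56, adjusted p = 0.0194. Slc7a10 was near the floor, at 21.5 ± 7.37 in BCAA-free TAC and 4.89 ± 4.13 in control diet TAC samples (SD, n = 3 each). It passed the filter on a mean of 10 only through the BCAA-free samples. In the interaction, Slc38a4 (-0.61 ± 0.14, adjusted p = 0.0233) and Slc36a4 (-0.73 ± 0.18, adjusted p = 0.0319) were lower and Slc36a2 (0.95 ± 0.26, adjusted p = 0.0394) higher, of 24 tested. Over all genes 8.65% were called.

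Several genes listed as amino acid carriers of the mitochondrial inner membrane were higher on the BCAA-free diet after TAC. The list and the counts below include Slc25a39, a carrier of glutathione. Of 12 tested, 6 rose and 0 fell on the BCAA-free diet against the control diet after TAC, where 34.2% of all genes were called (median 0.23), among them Slc25a22, a glutamate carrier (0.84 ± 0.19, adjusted p = 0.0134), Slc25a29, a carrier of basic amino acids (0.79 ± 0.13, adjusted p = 0.00336), Sfxn2 (0.69 ± 0.13, adjusted p = 0.0054) and Slc25a39 (0.32 ± 0.07, adjusted p = 0.0106; log2 fold changes, limma). TAC on the control diet lowered Slc25a22 (-0.90 ± 0.14, adjusted p = 0.0363) and raised Sfxn3 (0.83 ± 0.17, adjusted p = 0.042), with a median of -0.27. In that comparison 4.04% of all genes were called. On the BCAA-free diet TAC changed 0 of 12 by limma, with 1 at an unadjusted p under 0.05 and a median of 0.07, and Slc25a29 (0.38 ± 0.13, adjusted p = 0.0934) and Slc25a39 (0.15 ± 0.07, adjusted p = 0.205) had the smallest p. Over all genes 6.23% were called there and 24.5% had an unadjusted p under 0.05. The diets after sham differed in 0 of 12, with 1 at an unadjusted p under 0.05 and a median of -0.06, and Sfxn2 (0.42 ± 0.16, adjusted p = 0.228) and Slc25a22 (-0.19 ± 0.09, adjusted p = 0.323) had the smallest p. Over all genes these shares were 0.624% and 16.6%. The interaction was called and positive for 3 of 12, where 8.65% of all genes were called: Slc25a22 (1.04 ± 0.21, adjusted p = 0.0169), Slc25a39 (0.53 ± 0.12, adjusted p = 0.0227) and Slc25a29 (0.74 ± 0.19, adjusted p = 0.0341).

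Most genes listed for the breakdown of branched-chain amino acids, regulators included, were higher on the BCAA-free diet after TAC. Of the regulators, Ppm1k activates and Bckdk inhibits the branched-chain keto acid dehydrogenase, so the count does not measure breakdown itself. Of 8, 5 rose and 1 fell, where 16.5% of all genes rose and 17.7% fell, with a median of 0.55 against 0.00026 over all genes: Bcat2, the mitochondrial aminotransferase of the first step, had 0.64 ± 0.08, adjusted p = 0.00115, Bckdha, a subunit of the branched-chain keto acid dehydrogenase, 0.75 ± 0.14, adjusted p = 0.00502, its phosphatase Ppm1k 0.79 ± 0.14, adjusted p = 0.00438 and its kinase Bckdk 0.46 ± 0.09, adjusted p = 0.00612. TAC on the control diet changed 0 of the 8 by limma, where 4.04% of all genes were called, and the median was -0.37. Of the 8, 7 had an unadjusted p under 0.05, against 28.2% of all genes. Bckdha had -0.68 ± 0.16, adjusted p = 0.0516 and Bcat1, the cytosolic aminotransferase, 1.15 ± 0.28, adjusted p = 0.0541. TAC on the BCAA-free diet lowered Ppm1k (-0.32 ± 0.07, adjusted p = 0.0309) and Dbt (-0.27 ± 0.07, adjusted p = 0.0413), a subunit of the same dehydrogenase. In that comparison 2.89% of all genes fell. The diets after sham differed in 0 of 8 with 1 at an unadjusted p under 0.05 (Ppm1k 0.77 ± 0.18, adjusted p = 0.0803 and Dbt 0.13 ± 0.10, adjusted p = 0.556 by limma). Over all genes these shares were 0.624% and 16.6%. In the interaction 3 of 8 were called, all positive, where 8.65% of all genes were called: Bcat2 (0.55 ± 0.13, adjusted p = 0.0231), Bckdk (0.50 ± 0.13, adjusted p = 0.0321) and Bckdha (0.68 ± 0.18, adjusted p = 0.0367). The summed level of the 8 cardiomyocyte markers moved the same way as the medians of these genes and of the mitochondrial carriers. It had a log2 ratio of 0.44 for the BCAA-free against the control diet after TAC and of -0.30 for TAC against sham on the control diet. Its part in these values was not tested.

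Amino acid response genes showed no common direction. The list holds genes switched on through ATF4 when amino acids run short, and also Atf4 itself and Eif2ak4, a kinase gene upstream of it. After sham the diets differed in 0 of 22 by limma, where 0.624% of all genes were called, with a median of -0.07. Of the 22, 6 had an unadjusted p under 0.05, against 16.6% of all genes. Aldh18a1, an enzyme of proline synthesis, had -0.65 ± 0.13, adjusted p = 0.0511 and Mthfd2, of mitochondrial folate metabolism, -1.63 ± 0.36, adjusted p = 0.0698. After TAC 6 rose and 5 fell on the BCAA-free diet, where 34.2% of all genes were called (median -0.16): Cebpb, a C/EBP transcription factor, had 2.20 ± 0.11, adjusted p = 3.07e-05, Stc2 0.56 ± 0.12, adjusted p = 0.00823, Cth 1.48 ± 0.36, adjusted p = 0.0132 and Aldh18a1 -0.73 ± 0.16, adjusted p = 0.00944. TAC raised Nupr1 (1.58 ± 0.33, adjusted p = 0.0433) and no other of 22 on the control diet, where 4.04% of all genes were called. On the BCAA-free diet TAC raised Cebpb (1.62 ± 0.11, adjusted p = 5.76e-05) and lowered the stress-induced Atf3 (-1.53 ± 0.14, adjusted p = 0.000784) and Vldlr (-0.32 ± 0.08, adjusted p = 0.0376), where 6.23% of all genes were called. Cebpb alone was called in the interaction (2.20 ± 0.26, adjusted p = 0.00478), where 8.65% of all genes were. Around taurine, the substrate of the Slc6a6 carrier, Cdo1, the cysteine dioxygenase that leads to taurine, rose on the BCAA-free diet after sham (1.29 ± 0.18, adjusted p = 0.0126). It was 1 of 7 genes of taurine and cysteine metabolism tested, where 0.25% of all genes rose. After TAC 2 of 8 rose, where 16.5% of all genes did, Gclm (0.38 ± 0.09, adjusted p = 0.0141) and Ado (0.32 ± 0.08, adjusted p = 0.0165). TAC called 0 of 7 on either diet by limma, with 1 on the BCAA-free and 0 on the control diet at an unadjusted p under 0.05. Of all genes, 6.23% were called on the BCAA-free and 4.04% on the control diet. At an unadjusted p under 0.05 the shares were 24.5% and 28.2%. The smallest p belonged to Ado (0.29 ± 0.09, adjusted p = 0.0837) and Cdo1 (-0.36 ± 0.20, adjusted p = 0.3) on the BCAA-free and to Fmo1 (0.09 ± 0.10, adjusted p = 0.615) and Gclm (0.09 ± 0.11, adjusted p = 0.633) on the control diet. In the interaction 0 of 7 were called and 0 had an unadjusted p under 0.05, with Ado (0.33 ± 0.19, adjusted p = 0.257) and Csad (0.19 ± 0.14, adjusted p = 0.39) first. Over all genes these shares were 8.65% and 28.4%. The comparisons share samples in pairs, so their calls are not independent of one another.

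For each transporter called between a pair of groups, the genes with the most similar pattern over the 12 libraries were found among 8222 genes, by the root mean square difference of centred log2 RPM. Slc7a5, whose own spread was 0.461, was nearest to Gprc5b (0.113), Ptk2b (0.150) and C4b (0.166). Slc7a6, with a spread of 0.232, was nearest to Ptk2 (0.061), Tspan12 (0.0721) and Tmem167 (0.0742). Slc7a1, with 0.317, was nearest to Corin (0.119), Mtus2 (0.121) and Adam22 (0.123), and Slc1a5, with 0.330, to Iffo1 (0.132), Myl9 (0.137) and Grik5 (0.143). The points share libraries and depth, and these distances are descriptions with no test.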

How the data were processed

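PolyA RNA from 12 heart samples, 3 in each of 4 groups, was measured. Per the submitters' processing notes, the tools were DESeq2, with no version, Subread 1.5.2, STAR 2.5.2b and Trimmomatic 0.36, and the builds named are mm10 and GRCm38, without roles. Each of the 4 comparisons of surgery within a diet or of diet within a surgery has its own deposited table of 6 libraries, so that a library occurs in 2 of them. The signal deposited by the authors is a normalized read count, a gene's reads divided by 1 size factor per library within a table. The log2 fold changes and p-values in those tables are the authors' own, per the file headers, and were used only where named. In each library 100% of values were whole multiples of a step, to within 0.01 reads, and both tables of a library gave equal reads. Replicates differed by more than counting error (mean chi-square 4.69 to 65.8 per gene, where counting alone gives 1), so no library was a copy of another.

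Each of these pairs of groups was compared within its table with limma 3.58.1 (R 4.3.3, statmod 1.5.0; trend, robust, two-sided) on log2 of the value plus 1, over genes averaging at least 10, with Benjamini-Hochberg adjustment over all genes tested. Fold changes are on this scale, which understates changes of low genes. The interaction used the joined tables of TAC against sham. The tests were checked on simulated counts. The transporters, the 5 pathway lists and the 11 marker lists were chosen with earlier results of these data known. All 9 transporters are named. Of each pathway list, up to 4 called genes with the smallest p are named per comparison, or the 2 with the smallest p where none was called. The 3 genes nearest to each called transporter needed at least 10 RPM. Positions and transcripts are from GENCODE M21 on GRCm38, and sequences from RefSeq on GRCm38.p6. Alternatives were TMM rescaling, library totals alone, no filter, a mean of at least 100, a pseudocount of 10, limma-voom, edgeR 4.0.16 and DESeq2 1.42.0 on recovered reads (6 libraries), limma-voom and edgeR on all 12, a replicate block, spline removal (4 degrees of freedom) of the trend with transcript length and GC content in a library, and each library left out in turn.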

Additional observations from a re-analysis of the deposited data

Results flagged for a closer look

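The TAC effect of Slc7a5 differed between the diets by the test of the difference itself: BCAA-free minus control diet, it was -0.92 on the log2 scale (limma, adjusted p = 0.0454), with all 3 control diet TAC samples above their sham samples and overlapping groups on the BCAA-free diet. For Slc7a6 the same difference was -0.49 (limma, adjusted p = 0.0426), with the TAC samples below all sham samples on the BCAA-free diet and above all of them on the control diet. Neither call held throughout. With the GC and length trend removed the Slc7a6 difference was -0.36 (limma, adjusted p = 0.105). Leaving out 1 library at a time ended the Slc7a5 call in 9 and the Slc7a6 call in 10 of 12 fits. The differences were -1.06 to -0.72 over these fits for Slc7a5 and -0.53 to -0.42 for Slc7a6.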

How the results depend on the processing

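Over 45 fold changes of single transporters and 891 alternatives, 791 kept their direction and their side of the threshold, 49 lost and 16 gained a call in the same direction, and 35 changed sign, all for values that were not called. Removing the GC and length trend turned Slc3a2 after TAC on the control diet to -0.0187, Slc38a2 after TAC on the BCAA-free diet to 0.0733, Slc38a2 in the diets after sham to -0.0172, Slc38a1 in the diets after TAC to 0.22 and the Slc7a1 interaction to 0.10. Library totals alone turned Slc7a8 (-0.11) and Slc6a6 (-0.0817) in the diets after TAC and the Slc1a5 interaction (-0.0251); they move the median of all genes by 0.14 for TAC on the control diet, -0.13 for the diets after TAC and -0.20 for the interaction. With a library left out, Slc3a2 after TAC ranged from -0.0260 to 0.21 on the control diet and -0.0854 to 0.0441 on the BCAA-free diet, and on the BCAA-free diet Slc7a8 ranged from -0.18 to 0.13, Slc38a2 from -0.23 to 0.0143 and Slc6a6 from -0.00011 to 0.25. Slc38a2 in the diets after sham ranged from -0.0940 to 0.13, in the diets after TAC Slc7a8 from -0.0914 to 0.21, Slc38a1 from -0.17 to 0.0534 and Slc6a6 from -0.0443 to 0.22, and the Slc1a5 interaction from -0.0251 to 0.28. The number of transporters called was 1 after TAC on the control diet, 2 with the 12-library limma-voom and edgeR fits (with Slc7a6) and with the trend removed (with Slc7a1, -0.43), and 0 to 2 with a library left out. After TAC on the BCAA-free diet it was 2, 0 with the 12-library fits and the trend removed, and 0 to 2 with a library left out. In the diets after sham it was 0, 1 with DESeq2, the 12-library fits and the trend removed, and 0 to 1 with a library left out. In the diets after TAC it was 4, 2 with library totals alone, 5 with DESeq2 and the 12-library fits (with Slc38a2), and 2 to 5 with a library left out. In the interaction it was 2, 1 with limma-voom on recovered reads and with the trend removed, and 0 to 3 with a library left out. The cause of these changes was not tested.

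Groups share replicate numbers, but samples of the same number did not deviate together more than others. Pearson r across genes was -0.182 to 0.0812 for the same number and -0.170 to 0.244 for different numbers. No pairing by number was thus seen, but this measure cannot exclude a shared batch, which the labels do not give. With the replicate block the number called was 1, 2, 0, 4 and 3 in the order above, the third in the interaction being Slc38a1 (-0.47, adjusted p = 0.0495, limma); with the block and the trend removed together it was 1, 0, 1, 4 and 1. The block cannot change the mean log2 ratio of Slc7a5 to Slc3a2 reads, 1.13 for TAC on the control diet. Depth limits Slc7a5, with 83 reads in the shallowest library, and 3 samples a group limit every test.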
